A study of Mus musculus with 6 samples.

Results

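ExNeuron1 is the largest of the 12 classes into which the authors' annotation divides the droplet nuclei. These came from mouse cortex that had been fixed in formalin and embedded in paraffin (FFPE). Its nuclei were taken by that annotation alone: 2121 of 7031 nuclei, or 30.2% (exact binomial 95% interval 29.1 to 31.3%, for counting error only). The annotation names 5 further classes as excitatory neurons, ExNeuron2 to ExNeuron6, with 1098, 1105, 716, 331 and 209 nuclei, and 6 non-neuronal classes with 1451 nuclei in all. ExNeuron1 equals 1 Leiden cluster of the authors.

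Excitatory neurons of the cortex release glutamate, which the transporter Slc17a7 (VGLUT1) loads into synaptic vesicles. They are projection neurons, and their type follows the cortical layer. Rorb is typical of layer 4, and Foxp2 and Hs3st4 of layer 6. Nuclei hold mostly unspliced RNA, and formalin breaks and crosslinks it, so few molecules are read per nucleus.

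The study compared ways of profiling nuclei from FFPE tissue, in wells, in plates and in droplets. All samples were labelled cortex of C57BL/6J mice aged 8 to 12 weeks, cut as 50 µm scrolls, and the labels name no animal, sex, genotype or treatment beyond the strain. The droplet nuclei formed 1 library with 0 repeated barcodes. Nuclei of 1 library are not replicates, and the class was made from these same genes, so every difference between classes is a description with no test, and intervals cover counting error only.

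An ExNeuron1 nucleus held 236 to 998 unique molecular identifiers (UMIs, each standing for 1 captured RNA molecule), with a median of 331 and quartiles of 279 and 456. It held a median of 281 detected genes. The medians were 322 UMIs in the other ExNeuron nuclei together and 326 in the non-neuronal nuclei. With each nucleus drawn down to 300 UMIs, which left out 782 ExNeuron1 nuclei and kept 1339, the median was 257 genes in ExNeuron1, 257 in the other ExNeuron nuclei and 259 in the non-neuronal nuclei. The medians were thus close, but ExNeuron1 had more deep nuclei: its upper quartile of 456 UMIs compares with 398 and 397, and 25.1% of its nuclei had at least 456 UMIs, against 15.9% and 15.6%. At these depths only summed counts carry most single genes.

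Slc17a7, the marker used here for the class, was seen in 517 ExNeuron1 nuclei, a share of 24.4% (22.6 to 26.3%). The share was 14.4% in ExNeuron2, 14.2% in ExNeuron3, 13.5% in ExNeuron4, 18.4% in ExNeuron5 and 18.2% in ExNeuron6. Non-neuronal nuclei, which should lack the gene, had it in 14.5% (12.7 to 16.4%). ExNeuron1 therefore stood above the non-neuronal share, whereas ExNeuron2, ExNeuron3 and ExNeuron4 had shares no higher than it at their own depths. At 300 UMIs per nucleus the shares were 19.1% (17.0 to 21.3%) in ExNeuron1, 11.7% in the other ExNeuron nuclei and 9.95% in the non-neuronal nuclei (8.08 to 12.1%). ExNeuron2, whose median of 296 UMIs is the lowest of the ExNeuron classes, was at 14.6% there (11.6 to 17.9%), higher than the non-neuronal share though the intervals overlap, and ExNeuron3 and ExNeuron4 were at 10.9% and 8.96%.

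**Figure D1:**
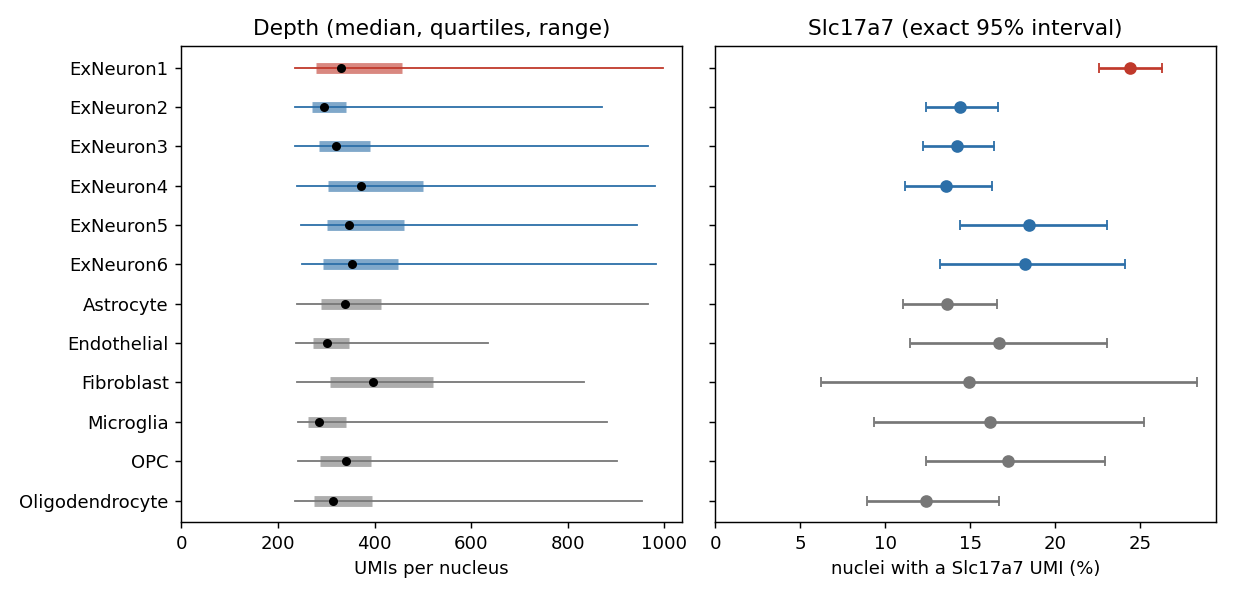
UMIs per nucleus (left, dot at the median, thick bar for the quartiles, thin line for the range) and the share of nuclei with a Slc17a7 UMI (right, exact binomial 95% interval) for the 12 annotated classes. The ExNeuron1 share of 24.4% is the highest, while its median of 331 UMIs lies within the range of the other classes.

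Summed over nuclei and scaled to 1000000 UMIs (counts per 1000000, CPM), Slc17a7 was 729 CPM in ExNeuron1 (exact Poisson 95% interval 672 to 789). It was 515, 439, 337, 562 and 505 CPM in ExNeuron2 to ExNeuron6 and 440 CPM in non-neuronal nuclei. The ratio of ExNeuron1 to non-neuronal nuclei was 1.66 (1.42 to 1.94). The marker of the class was thus higher than in nuclei that should lack it, by less than 2-fold. Slc17a6 (VGLUT2), the transporter of subcortical glutamate neurons, was at 50.7 CPM in ExNeuron1 and 47.6 CPM in non-neuronal nuclei, a ratio of 1.07 (0.635 to 1.83).

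A transcript of another cell type was as frequent in ExNeuron1 as its own marker. Mbp, the myelin basic protein of oligodendrocytes, was seen in 24.7% of ExNeuron1 nuclei (22.9 to 26.6%), as often as Slc17a7, whereas the oligodendrocyte genes Mobp and Mag were seen in 4.86% and 3.39%. Mbp was at 750 CPM in ExNeuron1 and 2133 CPM in oligodendrocytes. The 12 oligodendrocyte markers summed to 2069 CPM in ExNeuron1 and to 2002 to 2634 CPM in the other ExNeuron classes. The 12 astrocyte markers summed to 2511 CPM in ExNeuron1 and to 2057 to 2547 CPM in those classes. The part that RNA from outside the nucleus has in the differences below was not tested.

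The genes that led ExNeuron1 were measured against the mean CPM of the other 5 ExNeuron classes, each with equal weight. Of 2236 genes that reached 100 CPM in either set, 15 were at least 2-fold higher in ExNeuron1 (0.671% of the genes) and 27 at least 2-fold lower (1.21%). The class was built from these values, so nothing is read from those shares. ExNeuron1 was the highest of the 6 ExNeuron classes for 285 of the genes (12.7%) and the highest of all classes for 109 (4.87%).

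Promoters of 3 leading genes are shown beside that of Slc17a7, to set windows with a neuronal motif beside windows without it. RefSeq's table (build GRCm38.p6) held a promoter for 11 of the 15 leading genes, and Tmem132d, Gm28928 and Dkk3 were among those without one. The motif was the E-box CAGATG, which basic helix-loop-helix factors of neurons such as those of the Neurod family bind. The 250 bases before the start were searched for it on both strands, where the other strand reads as CATCTG in the printed sequence. Capitals mark a match.
Slc17a7 (chr7:45163671-45163920, plus strand): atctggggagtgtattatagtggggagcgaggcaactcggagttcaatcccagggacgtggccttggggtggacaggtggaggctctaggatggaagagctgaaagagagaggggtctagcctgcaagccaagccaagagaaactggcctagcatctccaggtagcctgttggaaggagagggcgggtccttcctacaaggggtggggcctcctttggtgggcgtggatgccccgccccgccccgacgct
Nwd2 (chr5:63648853-63649102, plus strand): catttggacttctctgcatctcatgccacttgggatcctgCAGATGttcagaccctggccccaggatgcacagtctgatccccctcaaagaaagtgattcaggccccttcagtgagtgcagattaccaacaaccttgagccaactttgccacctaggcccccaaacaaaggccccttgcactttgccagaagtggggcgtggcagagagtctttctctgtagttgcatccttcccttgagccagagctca
Pde1a (chr2:80128972-80129221, minus strand): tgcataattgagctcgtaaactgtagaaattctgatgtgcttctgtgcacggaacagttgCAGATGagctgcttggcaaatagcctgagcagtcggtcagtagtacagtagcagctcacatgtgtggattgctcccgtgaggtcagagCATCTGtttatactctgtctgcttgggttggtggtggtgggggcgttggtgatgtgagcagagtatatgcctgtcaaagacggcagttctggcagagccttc
Rorb (chr19:19111197-19111446, minus strand): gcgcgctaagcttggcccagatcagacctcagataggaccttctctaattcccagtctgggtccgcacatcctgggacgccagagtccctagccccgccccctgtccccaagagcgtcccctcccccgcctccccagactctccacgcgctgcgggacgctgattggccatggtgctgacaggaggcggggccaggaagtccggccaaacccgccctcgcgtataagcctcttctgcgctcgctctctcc
Of the 11 leading genes, 3 held a match in at least 1 of their promoters (27.3%): Nwd2, Pde1a and Trmt13. The share was 12.8% over the 1668 tested genes with a promoter and 16.3% over all 27025 genes of the table, with more promoters per leading gene than per tested gene. Counted by promoter, the shares were 3 of 20 (15%) for the leading genes, 250 of 2423 (10.3%) for the tested genes and 14.4% of the 32851 in the table. The Pde1a window printed held 2 matches and is the only 1 of the 4 Pde1a promoters in the table with any, and the Slc17a7 promoter and both Rorb promoters held 0. A match of these letters describes the window and is not a bound site.

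The leading gene by ratio was Tmem132d, which encodes a transmembrane protein (chr5:127781630-128433077, minus strand). It was at 388 CPM in ExNeuron1 (347 to 433) and at 55.0, 59.0, 188, 180 and 185 CPM in ExNeuron2 to ExNeuron6. Even the highest of the others lay below the lower bound in ExNeuron1. Its ratio to the equal-weight mean of 133 CPM was 2.91, and its ratio to the pooled UMIs of the other 5 classes was 3.52 (2.87 to 4.33).

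Gm28928, a long intergenic noncoding RNA (chr1:124505757-124846039, minus strand), was the leading gene with the most UMIs. Its level was 1928 CPM in ExNeuron1 (1835 to 2025). It was 697, 500.3, 555, 1312 and 468 CPM in ExNeuron2 to ExNeuron6, and 733 CPM in non-neuronal nuclei. A UMI of it was seen in 33.4% of ExNeuron1 nuclei (31.4 to 35.5%). ExNeuron5 came closest, and the other classes were at the non-neuronal level or below it.

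Rorb (chr19:18930605-19111196, minus strand), a nuclear receptor, was at 298 CPM in ExNeuron1 (262 to 338) and at 95.5, 141, 129, 165 and 148 CPM in ExNeuron2 to ExNeuron6. Astrocytes also carry Rorb, at 726 CPM here, and non-neuronal nuclei as a whole had 427 CPM, so the gene led only among the ExNeuron classes.

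A further 4 leading genes were at 202 to 485 CPM in ExNeuron1. Pde1a, a calmodulin-dependent phosphodiesterase, was at 485 CPM in ExNeuron1 and at 174 to 322 CPM in the other ExNeuron classes. Stx1a, the syntaxin of the vesicle fusion machinery, was at 240 CPM, but ExNeuron6 had it at 234 CPM. Dkk3, of the Dickkopf family of Wnt modulators, was at 202 CPM against at most 157 CPM, in ExNeuron5. Pdzrn3, a ubiquitin ligase with PDZ domains, was at 233 CPM in ExNeuron1 and 232 CPM in ExNeuron5, and at 30.8 to 111 CPM elsewhere.

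Another 7 leading genes were at 100.3 to 169 CPM in ExNeuron1. They were Hs3st2, a heparan sulfate sulfotransferase, the tRNA methyltransferase gene Trmt13, Nwd2, Mlip, the EF-hand gene Necab3, the membrane protein gene Lamp5 and the actin nucleator Cobl. Trmt13 overlaps Lrrc39 and Sass6, and reads of overlapping genes cannot be told apart here. Of the 15 leading genes, 13 were highest in ExNeuron1 among the 6 classes. Mlip was not, being slightly higher in ExNeuron5. Against the highest other class in place of the mean, 2 genes were at least 2-fold higher: Trmt13 with a ratio of 2.30 and Tmem132d with 2.06. The 15 genes lie on 9 chromosomes, and their median length was 181 kb against 94.2 kb over all genes tested and 332 kb for the 10 genes lowest in ExNeuron1.

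**Figure D2:**
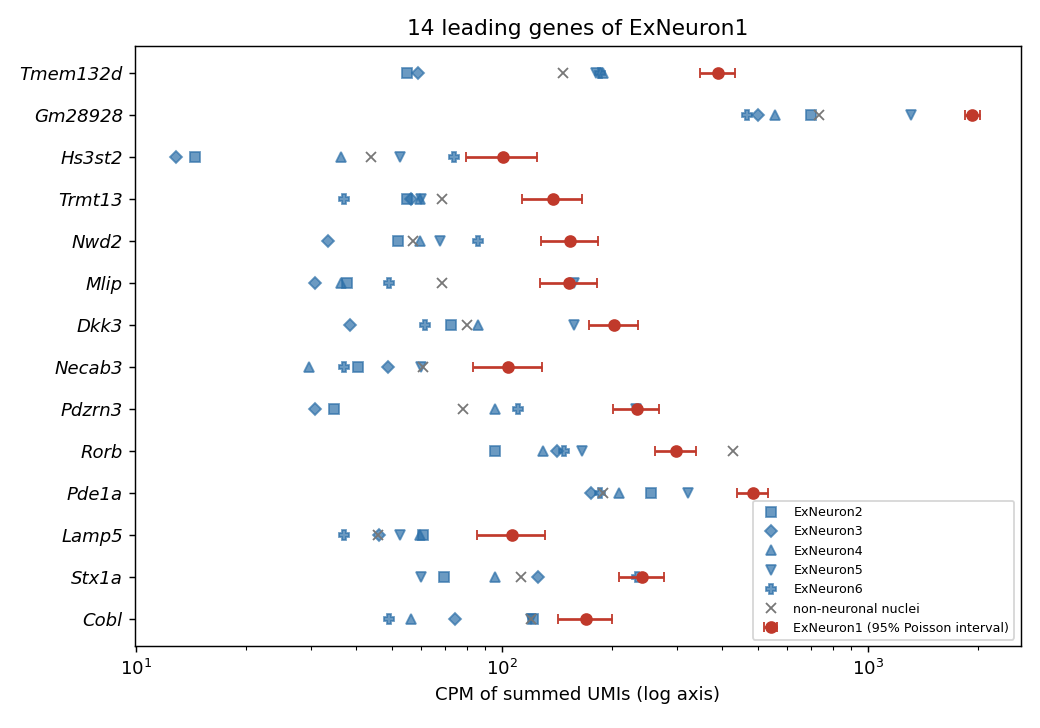
CPM of 14 leading genes (log axis) in ExNeuron1 (red, 95% Poisson interval), in the 5 other ExNeuron classes (blue symbols) and in non-neuronal nuclei (grey crosses). For Tmem132d and Gm28928 the ExNeuron1 interval clears every other class, for Mlip and Pdzrn3 ExNeuron5 lies inside it, and for Rorb the non-neuronal nuclei at 427 CPM lie above it.

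The 10 genes lowest in ExNeuron1 were each highest in ExNeuron4, ExNeuron5 or ExNeuron6. Ptpro, a receptor tyrosine phosphatase, had 7 UMIs in ExNeuron1 (8.46 CPM) and 517 CPM in ExNeuron6. Cpa6, a carboxypeptidase, was at 9.67 CPM against 529 CPM in ExNeuron6, and at 11.4 CPM in non-neuronal nuclei. The homeobox gene Pbx3 and the RNA-binding gene Pcbp3 were also highest in ExNeuron6, at 603 and 1071 CPM, as was the copine gene Cpne4, at 689 CPM. Against the pooled UMIs of the other classes, where ExNeuron6 counts for less, the log2 ratio of Cpne4 was -0.76 in place of -1.66, under 2-fold, and that of Cpa6 -2.07 in place of -3.54. Grin3a, a modulatory NMDA receptor subunit, Kcnip1, a partner of A-type potassium channels, Rbms3 and Nxph1 were highest in ExNeuron4, with Nxph1 at 757 CPM there and 109 CPM in ExNeuron1. Tshz2, a zinc finger gene of deep-layer near-projecting neurons, was at 84.6 CPM in ExNeuron1 and 1267 CPM in ExNeuron5. Against the lowest other class, no gene was at least 2-fold lower in ExNeuron1 (0 of those with at least 100 CPM).

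The fixed excitatory and upper-layer lists lay mostly above the mean of the other ExNeuron classes. The deep-layer list, which was highest in ExNeuron5, did not. Over all 2236 genes, 1097 lay above the mean of those classes (49.1%). All 8 excitatory genes with at least 100 CPM lay above the mean of the other ExNeuron classes, and 5 were highest in ExNeuron1. Their median difference was 0.44 on the log2 CPM scale, against -0.01 over all 2236 genes. Sv2b, a synaptic vesicle glycoprotein, was at 505 CPM against a mean of 267 CPM, and Nrgn, the calmodulin buffer neurogranin, at 1634 CPM against 1191 CPM. Neurod6 and Slc17a6 were under 100 CPM and did not enter the count.

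Of the upper-layer list, 7 of 8 genes lay above the mean, 2 of them at least 2-fold, Lamp5 included, where 0.671% of all genes were. Mef2c, a transcription factor of excitatory synapse development, was at 762 CPM against 571 CPM, and Unc5d, a netrin receptor of upper-layer neurons, at 483 CPM against 299 CPM, although ExNeuron4 had 565 CPM. Of the deep-layer list, 4 of 8 lay above, close to the share over all genes. The list summed to 2222 CPM against a mean of 2197 CPM, which ExNeuron5 raised. It was at 1901, 2058, 1594, 3660 and 1772 CPM in ExNeuron2 to ExNeuron6, so only ExNeuron5 lay above ExNeuron1. Rorb, which the list holds although it is typical of layer 4, was its 1 gene at least 2-fold above, and Tshz2 its 1 gene at least 2-fold below. Hs3st4 was at 412 CPM against 258 CPM, with ExNeuron5 higher at 645 CPM, and Etv1, an ETS factor, was lower at 226 CPM against 346 CPM.

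Granule and GABAergic markers were low against the mean of the other ExNeuron classes. None of the 10 cerebellar granule genes lay above that mean. The granule list summed to 2517 CPM in ExNeuron1 and to 4134, 5504, 2582, 2452 and 2486 CPM in ExNeuron2 to ExNeuron6. It was at 2371 CPM in non-neuronal nuclei. ExNeuron1 thus had about the level of ExNeuron4, ExNeuron5, ExNeuron6 and non-neuronal nuclei. None of the 8 GABAergic genes lay above the mean of the other ExNeuron classes either. Of these, 4 were at least 2-fold lower, where 1.21% of all genes were. The list summed to 1158 CPM in ExNeuron1 and to 1808, 1581, 5234, 1252 and 3298 CPM in ExNeuron2 to ExNeuron6, so ExNeuron5 was nearly as low. ExNeuron4, the highest for this list, had the excitatory list at 3809 CPM. That list was at 6071 CPM in ExNeuron1 and 3845 CPM in non-neuronal nuclei. The name ExNeuron is used here only as the authors' label, and the means of the other ExNeuron classes include ExNeuron4. Gad1 and Gad2, which encode the enzymes that make GABA, were at 93.0 and 44.7 CPM in ExNeuron1, against means of 258 and 137 CPM. The list of Purkinje and molecular-layer interneuron genes was mixed, with 4 of 8 above the mean, 2 highest in ExNeuron1 (12.7% of all genes) and 2 at least 2-fold below the mean (1.21%).

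Most receptor lists lay above and below in about equal parts, as did all genes (49.1% above). Of 5 NMDA receptor subunits, 2 lay above the mean of the other ExNeuron classes, and Grin3a at least 2-fold below it. Grin2b was at 668 CPM against 522 CPM, and Grin2a at 981 CPM against 854 CPM. Of the 4 AMPA receptor subunits 2 lay above, of the 6 metabotropic receptors 3, and of the 10 GABA-A receptor subunits 5. Of the 4 kainate and delta subunits only 1 lay above, and that list summed to 2914 CPM against a mean of 3604 CPM. Among 19 genes of presynaptic release 12 lay above, with Stx1a at least 2-fold. Of the 12 mitochondrial messages 1 lay above, and they summed to 30863 CPM in ExNeuron1 and 33791.5 CPM in the other ExNeuron nuclei pooled.

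Against non-neuronal nuclei the contrast was wider. Of 2391 genes, 65 were at least 2-fold higher in ExNeuron1 (2.72%) and 167 at least 2-fold lower (6.98%). The largest ratios were those of Rtn4r, the Nogo receptor of neurons, at 129 against 36.2 CPM (ratio 3.57, 2.18 to 6.17), Unc5d at 483 against 158 CPM (3.06, 2.41 to 3.92) and Hs3st4 at 412 against 135 CPM (3.05, 2.35 to 3.99). Pdzrn3, Nell1, the postsynaptic scaffold gene Dlgap2, Fstl4 and Nwd2 followed with ratios of 2.69 to 2.99. The genes at least 2-fold higher were long, with a median of 340 kb, against 127 kb for those at least 2-fold lower.

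The lowest genes of that contrast were highest in different non-neuronal classes. Mertk, the phagocytic receptor of astrocytes, was at 20.5 CPM in ExNeuron1 and 236 CPM in non-neuronal nuclei, and the oligodendrocyte gene Prr5l at 16.9 against 211 CPM. St3gal4, a sialyltransferase, was at 39.9 against 436 CPM and highest in fibroblasts at 959 CPM, and Nckap5 at 32.6 against 339 CPM and highest in oligodendrocyte precursors at 640.1 CPM. Plce1, Pdgfd, Plekhg1 and 1700112E06Rik had 3 to 12 UMIs in ExNeuron1. Plce1 and Plekhg1 were highest in astrocytes, Pdgfd in endothelial nuclei and 1700112E06Rik in microglia. Of the marker lists, 9 of 12 astrocyte genes and 10 of 11 oligodendrocyte genes were at least 2-fold lower in ExNeuron1, where 6.98% of all genes were. Some of them, such as Aqp4 and Plpp3, reached 100 CPM only in non-neuronal nuclei and could not have been higher in ExNeuron1. Nothing is therefore read from these counts.

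ExNeuron5 was the nearest class. Across genes, the Pearson correlation of log2(CPM + 1) with ExNeuron1 was 0.924 for ExNeuron5, 0.918 for ExNeuron2, 0.898 for ExNeuron4, 0.879 for ExNeuron3 and 0.831 for ExNeuron6, against 0.865 for astrocytes. The classes share 1 library, and the value also depends on how many UMIs a class has, so it only describes. Of 2326 genes, 46 were at least 2-fold higher in ExNeuron1 than in ExNeuron5 (1.98%) and 59 at least 2-fold lower (2.54%).

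The genes lower than in ExNeuron5 were clear. Vwc2l, which encodes a secreted protein, was at 10.9 against 405 CPM (ratio 0.0269, 0.0117 to 0.0548) and Tshz2 at 84.6 against 1267 CPM (0.0667, 0.0498 to 0.0887). Tox, an HMG-box factor, was at 168 against 592 CPM, and Chrm2, a muscarinic receptor, at 64.0 against 232 CPM. The genes higher than in ExNeuron5 rested on few UMIs. Stx1a had 8 UMIs in ExNeuron5 (ratio 4.01, 1.99 to 9.41), and Kcnab2, a potassium channel beta subunit, had 3 (5.21, 1.73 to 25.7). Hspa9, Arhgap44, Dctn2, Pde7b, Zdhhc14 and Atp2c1 were of the same kind, and their ratios to the mean of all other ExNeuron classes were 1.11 to 1.37.

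The transcripts with the largest share of ExNeuron1 UMIs did not set it apart. Gm42418, which overlaps the ribosomal RNA-derived AY036118, was at 27778 CPM in ExNeuron1 and 29521 CPM in non-neuronal nuclei. Kcnip4, a potassium channel partner, was at 10272 CPM and at 6436 to 15579 CPM in the other ExNeuron classes. Malat1, a nuclear noncoding RNA, was at 5475 CPM and Dlgap1, a postsynaptic scaffold gene, at 5921 CPM. Ptprd, a receptor phosphatase that organises synapses, was the exception, with 6051 CPM in ExNeuron1 against 2055 to 5092 CPM in the other ExNeuron classes.

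The profile of ExNeuron1 varied with the UMIs of its nuclei. The nuclei were divided at the quartiles of ExNeuron1, giving 523 nuclei of 236 to 278 UMIs, 535 of 279 to 330, 531 of 331 to 455 and 532 of 456 to 998, and the same bounds were used in the other sets. Gm28928 was at 729, 880, 1492 and 3214 CPM from the shallowest to the deepest set, a ratio of 4.41 between deepest and shallowest (3.59 to 5.47). In the other ExNeuron nuclei it was at 627, 526, 577 and 886 CPM. The noncoding RNA was therefore near the level of the other classes in shallow ExNeuron1 nuclei and well above it in deep ones.

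Most leading genes followed Gm28928, with exceptions. Tmem132d was at 109, 229, 418 and 564 CPM in ExNeuron1 and at 47.2, 73.4, 103 and 197 CPM in the other ExNeuron nuclei. Its log2 ratio to the mean of the other ExNeuron classes was 1.51 below 456 UMIs and 1.37 at or above that bound, and those of Pdzrn3 (1.23 and 1.15) and Lamp5 (1.13 and 1.03) were likewise no larger in deep nuclei. For the other 12 of the 15 the ratio was larger in deep nuclei, as for Mlip (0.35 and 2.03), Cobl (0.39 and 1.85) and Rorb (0.68 and 1.59). The 15 genes were chosen on the UMIs of these same nuclei, of which the deepest set gives 327970 of 827602, so nothing is read from how many were higher there. Ptprd, a receptor tyrosine phosphatase of synapses that was not a leading gene, was at 2507, 3482, 5035 and 9422 CPM in ExNeuron1. Summed, the 15 leading genes were at 2529, 2738, 4020 and 7391 CPM (ratio 2.92, 2.61 to 3.28), while they were at 1708 and 2271 CPM in the shallowest and deepest other ExNeuron nuclei and at 2044 and 3275 CPM in non-neuronal ones. Of the 15, 12 were higher in the deepest than in the shallowest set of ExNeuron1 (41.9% of 2512 genes), 10 of them at least 2-fold (10.6% of the genes), and 11 were higher in the deepest set of the other ExNeuron nuclei. Hs3st2, Necab3 and Lamp5 were lower in the deepest ExNeuron1 set.

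Layer and glutamate receptor genes followed. Hs3st4 was at 146, 105, 348 and 713 CPM and Unc5d at 182, 310, 473 and 701 CPM. Mef2c was at 525 CPM in the shallowest and 1046 CPM in the deepest set. The metabotropic receptor list was 1.84-fold higher in the deepest set (1.62 to 2.09), with Grm7 at 561 and 1741 CPM, and the NMDA receptor list 1.65-fold (1.42 to 1.91). These lists were also higher in the deepest of the other ExNeuron nuclei, by 1.58-fold and 1.42-fold.

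Slc17a7 did not follow this course. It was at 787, 712, 642 and 765 CPM over the 4 depth sets of ExNeuron1, with overlapping intervals. In the other ExNeuron nuclei it was lower in the deepest set, at 552 and 354 CPM, and likewise in non-neuronal nuclei, at 582 and 367 CPM. ExNeuron4, the ExNeuron class with the least Slc17a7, gave 233 of the 550 deepest of the other ExNeuron nuclei. The part of this class mix was not tested. In the deepest set alone, 37.4% of ExNeuron1 nuclei had a Slc17a7 UMI (33.3 to 41.7%), 18.2% of other ExNeuron nuclei and 18.9% of non-neuronal nuclei. The margin of the marker over non-neuronal nuclei was thus widest where the nuclei were deepest.

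**Figure D3:**
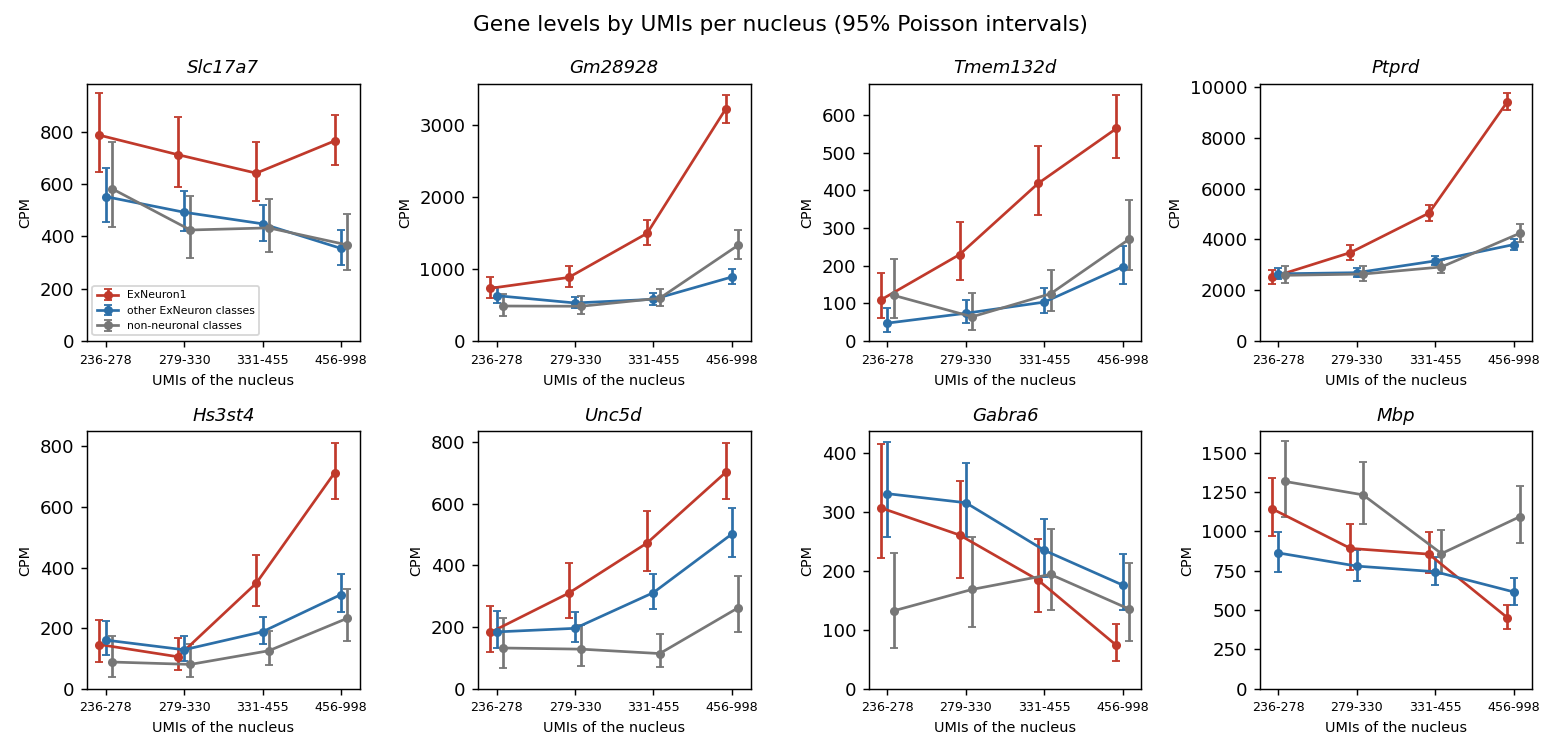
CPM with 95% Poisson intervals of 8 genes over 4 ranges of UMIs per nucleus in ExNeuron1 (red), the other ExNeuron classes (blue) and non-neuronal classes (grey). Gm28928 goes from 729 to 3214 CPM in ExNeuron1 and Gabra6 from 306 to 73.2 CPM, while Slc17a7 stays between 642 and 787 CPM.

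Several lists of other cell types went the opposite way. The cerebellar granule list was at 3469, 3643, 2856 and 1357 CPM over the 4 depth sets of ExNeuron1, and 8 of its 10 genes were at least 2-fold lower in the deepest, against 271 of 2512 genes (10.8%). Gabra6, the granule cell GABA-A subunit, was at 306, 260.2, 184 and 73.2 CPM, and Fat2, a granule cell protocadherin, at 226, 223, 139 and 33.5 CPM. The granule list was also lower in the deepest other ExNeuron nuclei, at 4105 and 2803 CPM, and close in non-neuronal ones, at 2132 and 1926 CPM. The oligodendrocyte list was at 2915 and 1302 CPM in the shallowest and deepest ExNeuron1 nuclei, with Mbp at 1144 and 451 CPM. The sum of the oligodendrocyte precursor list did not follow, at 977 and 1643 CPM (ratio 1.68, 1.39 to 2.05). Only 5 of its 11 genes were higher in the deepest set, where 41.9% of the 2512 genes were. Pcdh15 was at 255 and 671 CPM and Tnr at 277 and 494 CPM. Megf11 went the other way, at 189 and 45.7 CPM, as did Pdgfra, at 43.7 and 6.10 CPM. The sum of this list was 1.73-fold higher in the deepest other ExNeuron nuclei. The thalamic list, with a ratio of 1.10 (0.940 to 1.28), and the striatal list, with 0.978 (0.820 to 1.17), differed by no more than counting error. The mitochondrial messages were at 33905 and 27557 CPM, and Kcnd2, an A-type potassium channel, at 5911 and 2933 CPM.

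The GABAergic list differed in course between the sets. It was at 1487 CPM in the shallowest and 713 CPM in the deepest ExNeuron1 nuclei, and at 1897 and 3686 CPM in the other ExNeuron nuclei. The mix of classes in the latter differed with depth: ExNeuron4, which had the highest sum for the list, gave 233 of the 550 deepest nuclei and 716 of 3459 in all. The kainate and delta receptor list likewise was 0.684-fold in ExNeuron1 (0.609 to 0.769) and 1.24-fold in the other ExNeuron classes. The part of the class mix in these values was not tested. What part the depth of a nucleus has in its assignment to a class was not tested.

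**Figure D4:**
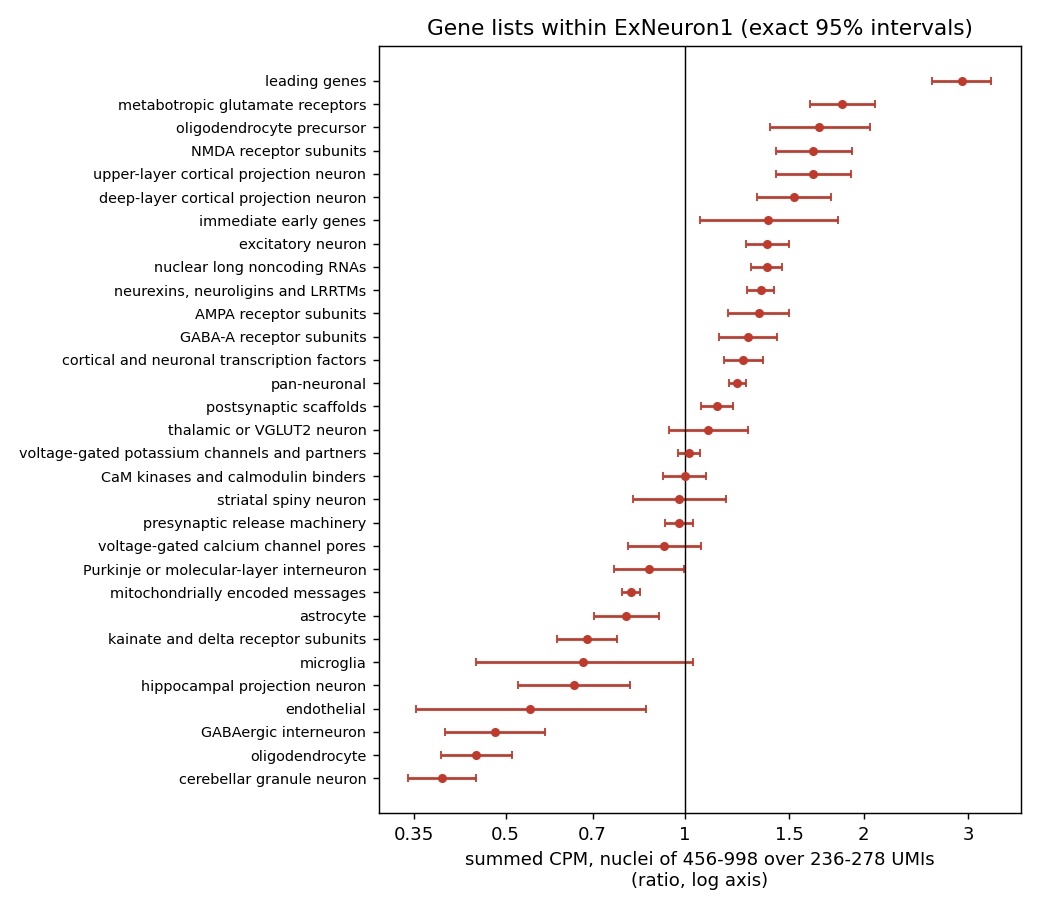
Ratio of summed CPM in the deepest to the shallowest set of ExNeuron1 nuclei for the fixed gene lists and the 15 leading genes (log axis, exact 95% intervals). The leading genes are at 2.92, and the cerebellar granule list at 0.391 is the lowest.

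Restricted to nuclei of at least 456 UMIs in every class, 81 genes were at least 2-fold above the other ExNeuron classes and 147 below, and 158 were above non-neuronal nuclei and 251 below. With the nuclei under 456 UMIs the counts were 7, 25, 53 and 178. Few nuclei stand behind the deep values of some classes, with 48 in ExNeuron6 and 50 in ExNeuron2, and the part of counting error in these counts was not tested.

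Among the 532 deepest ExNeuron1 nuclei, the spread of a gene was set against that of 1 common rate, where the ratio of observed to expected variance is 1. The median over 1205 genes with at least 50 UMIs was 1.05. Adarb2, an RNA-editing family member of interneurons, had the largest ratio, 8.46, with 24 of its 62 UMIs in 1 nucleus. Over all ExNeuron1 nuclei, 3 nuclei with at least 5 UMIs of Adarb2 held 39 of its 170 UMIs, and none of these 3 had a Gad1, Gad2 or Slc17a7 UMI, while 2 had a UMI of Erbb4, a receptor of interneurons. Kcnip4 followed with 2.86, Ptprd with 2.64, the synaptic adhesion gene Lrrtm4 with 2.44, Trmt13 with 2.32 and Gm28928 with 2.16.

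Layer genes were also uneven. The ratio was 1.83 for Hs3st4, 1.80 for Rorb, 1.77 for Unc5d and 1.75 for Il1rapl2, ranking them between 18 and 27 of the 1205 genes. Slc17a7, at 1.00, was close to 1 common rate.

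Rorb varied with Unc5d, and Hs3st4 with Foxp2. The 34 deep nuclei with at least 2 Rorb UMIs had Unc5d at 1943 CPM (1406 to 2617), and the 445 with 0 Rorb UMIs had it at 560 CPM (475 to 656). The 53 nuclei with at least 2 Unc5d UMIs had Rorb at 970.3 CPM (672 to 1356), against 291 CPM (226 to 368) in the 390 with 0. The 49 nuclei with at least 2 Hs3st4 UMIs had Foxp2 at 345 CPM (172 to 617) against 105 CPM (68.0 to 155), Unc5d at 314 against 731 CPM and Lrrtm4 at 1160 against 2882 CPM. Slc17a7 was at 753 CPM in them and 790 CPM in the nuclei without Hs3st4. Il1rapl2 showed no such partner among the 3: the 28 nuclei with at least 2 of its UMIs had Rorb at 497 against 436 CPM, Unc5d at 596 against 726 CPM and Hs3st4 at 397 against 772 CPM, each with overlapping intervals.

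**Figure D5:**
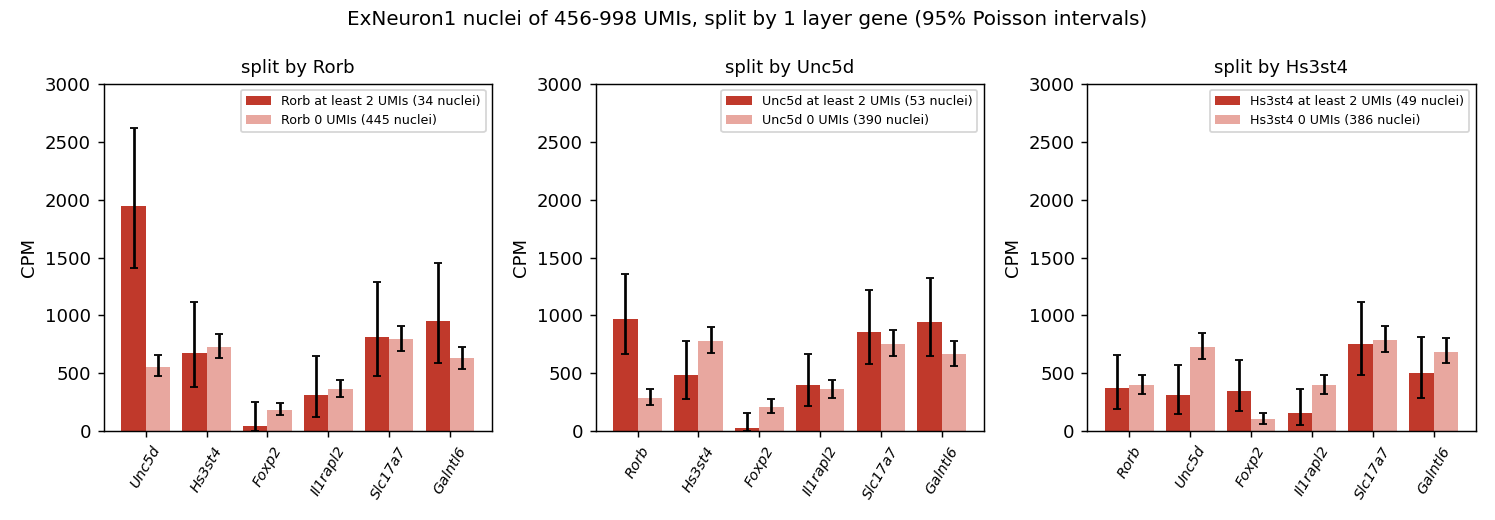
CPM (bars from 0, 95% Poisson intervals) of layer genes, Galntl6 and Slc17a7 in ExNeuron1 nuclei of at least 456 UMIs, split by at least 2 or 0 UMIs of Rorb, Unc5d or Hs3st4. Unc5d is 1943 against 560 CPM when split by Rorb, Foxp2 is 345 against 105 CPM when split by Hs3st4, and Slc17a7 differs little in any split.

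The plate nuclei give the leading genes in libraries that did not make the class. Their annotation gives no cell classes, so values cover all nuclei of a plate set: 98 FFPE nuclei of batch 1, 134 of batch 2 and 137 frozen nuclei that no GEO sample label describes. Gm28928 had a mean of 35.7 CPM in batch 1, 73.9 CPM in batch 2 and 1102 CPM in frozen nuclei, with a count in 15.3%, 28.4% and 89.1% of nuclei. Of the 15 leading genes, 14 had a higher mean in frozen nuclei than in FFPE batch 2, where the share over 2200 genes was 51.8%, and 11 were at least 2-fold higher, against 25.3%. Cobl was the exception, at 78.0 against 129.6 CPM. Against batch 1, 13 of the 15 were higher in frozen nuclei, where the share over all genes was 50.3%, and the exceptions were Rorb, at 54.2 against 119 CPM, and Hs3st2, at 33.5 against 37.0 CPM. Median counts per nucleus were 255329 in frozen nuclei and 42747 in batch 2, and preservation, depth and plate cannot be told apart.

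Within the frozen nuclei, 39 had more Slc17a7 than Gad1 plus Gad2 counts and 61 the reverse. Of the 15 leading genes, 11 had a higher mean in the former, where the share over 2201 genes was 49.1%, and 4 were at least 2-fold higher, against 13.4%. Dkk3 was at 181 against 82.5 CPM and Gm28928 at 1102 against 580.3 CPM. Tmem132d and Trmt13, which were at least 2-fold above every other droplet ExNeuron class, had lower means here, at 448 against 527 CPM and 4.70 against 13.0 CPM, as had Hs3st2 and Cobl. Single nuclei weigh on these means. The highest Tmem132d value in the latter set was 13790 CPM, the medians were 269 and 259 CPM, and 94.9% and 88.5% of nuclei had a count. Cobl had medians of 38.8 and 1.54 CPM, Hs3st2 of 2.60 and 0 CPM, and Trmt13 of 0 CPM in both sets. A count was seen in 59.0% and 37.7% of nuclei for Hs3st2, and in 28.2% and 27.9% for Trmt13. By the median, Cobl and Hs3st2 were thus higher in the former, and Tmem132d differed little. The nuclei with more Slc17a7 were also deeper, with a median of 601831 counts against 404285, and a share of nuclei with a count depends on depth. Of the 10 lowest genes, 3 were higher and 6 at least 2-fold lower, against 16.4%. Nxph1 was at 28.4 against 368 CPM, with medians of 6.87 and 41.1 CPM. Ptpro was at 29.2 against 407 CPM, but 1 nucleus of the latter set held 12552 CPM, and its medians ran the other way, at 16.5 and 0 CPM. Gabra6 had a count in 1 of all 137 frozen nuclei, which was none of the 39, while its mean was 163 and 100.2 CPM in the FFPE plate batches and its level 175 CPM in droplet ExNeuron1 nuclei.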

How the data were processed

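For the droplet nuclei the authors deposited UMI counts of 19905 genes with no scaling, and a table that assigns each nucleus to 1 of 12 classes and gives its mitochondrial fraction. The builds were mm10 and hg19, per the submitters' processing notes. The aligner and the counter were not given in the sources used here. Nuclei had been filtered before deposit, since no more than 4.99% of a nucleus's UMIs were mitochondrial, and 1 gene is recorded in 23828 cells by the authors, more than the table holds. Summed UMIs differed from the authors' totals by 1 in 131 nuclei. The deposited plate tables hold raw counts. No doublet caller was run, and leaving out the 5% of nuclei with the most UMIs was an alternative.

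UMIs were summed per class and scaled to CPM. Intervals are exact (95%: Poisson, Clopper-Pearson, conditional for ratios) and cover counting error only. No test was made. Scripts were tested on simulated data. Named genes were the 15 highest and 10 lowest ratios to the other ExNeuron classes, the 8 highest and lowest against non-neuronal nuclei and ExNeuron5, the 5 largest shares and the members of fixed lists, of which a few genes' own values are not reported here. The members and lists were chosen with earlier results of these data known, and the UMI depth sets and splits of nuclei after seeing the data. Annotation was GENCODE M21 on GRCm38. Python 3.11.15, numpy 2.4.6, pandas 2.3.3, scipy 1.17.1 and matplotlib 3.10.9 were used.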

Additional observations from a re-analysis of the deposited data

How the results depend on the processing

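The counts of genes at least 2-fold above and below the other ExNeuron classes, and above and below non-neuronal nuclei, were 34, 58, 112 and 360 with a minimum of 50 CPM, and 428, 596, 515 and 1149 with no CPM minimum and at least 10 UMIs. In nuclei of at least 456 UMIs they were 81, 147, 158 and 251, and below that bound 7 genes lay above the other ExNeuron classes. Against the highest other class 2 genes lay above, and against the lowest 0 lay below. Fewer UMIs per gene, or fewer nuclei, are part of how the first 3 settings are built. Beyond that, the cause was not tested. The share of nuclei with a Slc17a7 UMI was 19.1% at 300 UMIs per nucleus, 37.4% at 456 UMIs or more and 20.0% below. Scaling without Malat1 and mitochondrial genes, equal weight per nucleus, pooled UMIs of the other classes, leaving out ExNeuron3, and leaving out the deepest 5% of nuclei kept these counts within 1.5 times. Of the 25 named genes of the contrast with other ExNeuron classes, 0 changed direction under these 5 alternatives or the 2 depth bounds, and 0 to 14 moved beyond their counting interval. Leaving out plate nuclei above 500000 counts gave 13 in place of 14 leading genes higher in frozen nuclei. No paired analysis was possible because the droplet data are 1 library and no result comes from a test. Counts of a few UMIs in small classes limit single genes.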
